A study of Mus musculus with 13 samples.

Results

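The set described here is 303 regions of the mouse genome where STAT5A was called in both replicates after interleukin 3 (IL3) was given and in neither replicate without it, and whose centre lay within 1 kb of either bound of a protein-coding gene. The 4 lists of STAT5A regions, 1 for each replicate, were merged wherever regions overlapped by at least 1 bp, which gave 20764 merged regions on the assembled chromosomes. Of these, 1811 were gained in this sense (8.72%), and of the 6263 merged regions at gene ends 303 were gained (4.84%). The 303 are 16.7% of all gained regions, and they touch the ends of 344 of 21887 protein-coding genes (1.57%). Because the STAT5A calls with and without IL3 chose the regions, those calls and their scores are given as a description and are not tested.

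IL3 binds a receptor whose common beta chain recruits the kinase JAK2, and JAK2 phosphorylates STAT5A and STAT5B. The phosphorylated proteins pair up, enter the nucleus and bind a palindrome known as the gamma-activated site, in which TTC and GAA are separated by a spacer of 3 bases. In blood cells STAT5 is known to switch on genes of survival and growth and genes that shut cytokine signalling down again, such as Cish. LSD1, which removes methyl groups from histone H3, works with the CoREST corepressor, and HDAC3, which removes acetyl groups from histones, with the NCoR corepressor.

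The cells were Ba/F3, a mouse pro-B cell line that needs IL3 to grow and was kept in 1 ng/mL of it. Every library used here came from cells deprived of IL3 for 6 h. Those without IL3 were fixed with formaldehyde at that point, and those with IL3 were first given 10 ng/mL IL3 for 30 min. STAT5A, LSD1 and HDAC3 were immunoprecipitated with 1 antibody each in both conditions, with 2 biological replicates, which makes 12 libraries from a single line. All cells, controls included, had gone through the deprivation, so no unstarved state is compared. Whether the replicates of the 3 proteins came from the same cultures is not given in the sources used here.

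The lists differ in length, and this bears on every count below. For STAT5A the replicates without IL3 gave 354 and 4513 regions, and those with it 13574 and 6288. For LSD1 the numbers were 1007 and 15786 in unstimulated cells and 6479 and 11570 after IL3, and for HDAC3 1632 and 535, then 683 and 265. No source used here gives read totals, so the depth behind each list is unknown. Leaving out replicate 1 of STAT5A without IL3, the short list, gave 308 gained regions at gene ends in place of 303. Leaving out replicate 2 without IL3 gave 401, while asking for a call in only 1 replicate with IL3 gave 1854 (replicate 2) or 1949 (replicate 1). The number 303 therefore rests on the agreement of both libraries with IL3.

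Sequence could be read wherever a region overlapped a RefSeq promoter window of GRCm38.p6 (mm10), which runs from 250 bases before to 50 bases after a gene start. This held for 127 of the 303 regions, which overlap 151 windows. The sequences shown are the overlap of region and window, on the strand of the gene, 5′ to 3′, with each STAT element TTCNNNGAA in capitals. The first 6 belong to the regions with the highest score in the authors' pooled list among those with the strong form of the element, TTCCNGGAA.
Zfp58 (chr13:67500473-67500661, - strand): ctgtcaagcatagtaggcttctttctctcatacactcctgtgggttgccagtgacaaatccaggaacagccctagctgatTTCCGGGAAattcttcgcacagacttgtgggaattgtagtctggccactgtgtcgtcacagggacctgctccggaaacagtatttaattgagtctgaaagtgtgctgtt
Gbp7 (chr3:142530089-142530321, + strand): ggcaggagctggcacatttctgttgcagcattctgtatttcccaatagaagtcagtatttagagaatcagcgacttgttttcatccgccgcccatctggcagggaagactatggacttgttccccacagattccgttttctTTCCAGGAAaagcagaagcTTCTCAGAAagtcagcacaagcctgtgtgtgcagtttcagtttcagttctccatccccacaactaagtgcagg
Mrpl30 (chr1:37890227-37890452, + strand): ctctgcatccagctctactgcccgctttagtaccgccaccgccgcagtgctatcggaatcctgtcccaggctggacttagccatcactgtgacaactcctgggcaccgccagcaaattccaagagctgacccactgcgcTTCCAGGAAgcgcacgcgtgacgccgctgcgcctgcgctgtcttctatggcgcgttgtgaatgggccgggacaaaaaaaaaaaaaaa
Commd7 (chr2:153632732-153632932, - strand): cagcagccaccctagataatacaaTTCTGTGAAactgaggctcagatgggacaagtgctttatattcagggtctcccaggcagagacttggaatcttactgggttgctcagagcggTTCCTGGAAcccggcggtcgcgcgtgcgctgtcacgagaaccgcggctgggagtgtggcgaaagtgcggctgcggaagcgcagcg
Ccdc59 (chr10:105841379-105841528, + strand): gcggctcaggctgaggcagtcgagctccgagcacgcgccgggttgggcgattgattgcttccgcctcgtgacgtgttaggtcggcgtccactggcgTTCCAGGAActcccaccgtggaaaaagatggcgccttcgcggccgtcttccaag
Klhl28 (chr12:64965511-64965696, - strand): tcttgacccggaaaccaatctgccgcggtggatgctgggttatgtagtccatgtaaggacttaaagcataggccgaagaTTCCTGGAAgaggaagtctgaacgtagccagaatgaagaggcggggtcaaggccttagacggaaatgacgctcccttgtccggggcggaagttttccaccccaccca
Gbp7, an interferon-inducible guanylate-binding protein, had 2 elements 102 and 83 bp before its start. Zfp58 encodes a zinc finger protein, Mrpl30 a mitochondrial ribosomal protein, and Commd7 a COMM-domain protein. The elements of Zfp58, Ccdc59 and Klhl28 lay 21, 3 and 9 bp from the centre of the STAT5A region.

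The next 4 belong to an IL3 receptor chain and to interferon pathway genes, and each carries a form of the element other than the strong one. The interferon genes shown are ones with an element and do not speak for the others. Irf9 and Zc3hav1, for example, had no element where region and window overlap.
Csf2rb2 (chr15:78305672-78305836, - strand): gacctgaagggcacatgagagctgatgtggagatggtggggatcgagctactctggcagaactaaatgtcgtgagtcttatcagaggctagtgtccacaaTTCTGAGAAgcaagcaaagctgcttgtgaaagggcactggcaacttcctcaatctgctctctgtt
Irf1 (chr11:53769848-53770033, + strand): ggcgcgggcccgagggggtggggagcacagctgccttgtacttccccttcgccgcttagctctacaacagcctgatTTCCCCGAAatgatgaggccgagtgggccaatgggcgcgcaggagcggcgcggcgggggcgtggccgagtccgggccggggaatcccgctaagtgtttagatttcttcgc
Irf2 (chr8:46739495-46739688, + strand): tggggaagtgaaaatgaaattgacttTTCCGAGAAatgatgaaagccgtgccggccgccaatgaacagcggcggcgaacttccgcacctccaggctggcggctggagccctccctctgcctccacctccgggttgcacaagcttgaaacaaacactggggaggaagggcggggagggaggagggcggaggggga
Ifi35 (chr11:101448328-101448461, + strand): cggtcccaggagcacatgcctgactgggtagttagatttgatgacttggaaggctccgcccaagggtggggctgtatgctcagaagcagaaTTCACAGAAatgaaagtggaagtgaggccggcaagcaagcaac
Csf2rb2 encodes the mouse beta chain specific to the IL3 receptor, and its element lay 11 bp before the gene start and 7 bp from the region centre. Irf1 and Irf2 encode interferon regulatory factors, with elements 86 and 220 bp before the start. Ifi35, an interferon-induced gene, had its element 11 bp after the start.

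The last sequence, at Chuk, which encodes the NF-kB pathway kinase IKK alpha, has no STAT element where region and window overlap. The window holds 1 outside the region, 197 bp before the start and 172 bp from the region centre. Here the capitals mark the ETS element CCGGAA on either strand.
Chuk (chr19:44107428-44107603, - strand): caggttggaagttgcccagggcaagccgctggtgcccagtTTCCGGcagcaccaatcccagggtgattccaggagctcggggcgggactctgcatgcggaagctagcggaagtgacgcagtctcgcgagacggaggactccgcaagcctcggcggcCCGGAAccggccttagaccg

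To ask whether gained regions differ in sequence from other bound promoters, 13 motifs were searched on both strands of the promoter windows. TTCNNNGAA was found in 70 of the 151 windows overlapping a gained region, 46.4% (95% Wilson interval 38.6 to 54.3, counting error only), against 1636 of all 21263 windows of protein-coding genes, 7.69%. Where the region's centre itself lay in the window the share was 57.5%. Windows of regions retained at gene ends, those present in both IL3 replicates and in at least 1 replicate without IL3, held it in 22 of 119 cases, 18.5% (12.5 to 26.4). The intervals of the gained and the retained windows do not overlap.

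Windows whose STAT5A region was called in replicate 1 with IL3 alone held the element in 26.9% of 618 cases. Those called in replicate 2 with IL3 alone held it in 4.53% of 728, and those called only without IL3 in 2.59% of 1002. Windows with LSD1 in the pooled list with IL3 and no STAT5A region held it in 3.79% of 2295. The last 3 shares lie below that of all windows. Since the rule needs both replicates with IL3, leaving 1 out changes the share: it was 11.9% without replicate 1, 30.8% without replicate 2 and 36.9% without replicate 2 of the libraries without IL3. Neighbouring genes with divergent starts share one region and overlapping windows, so windows are not independent.

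The strong form TTCCNGGAA, which is a subset of TTCNNNGAA, was in 17.2% of gained, 4.20% of retained and 1.17% of all windows. A spacer of 4 bases, the form usually tied to STAT6, was in 12.6% of gained, 4.20% of retained and 6.35% of all windows. The ETS element CCGGAA was in 41.7% of gained, 46.2% of retained and 18.7% of all windows, so the bound sets resemble each other there. The AP-1 element TGANTCA was in 11.3% of gained, 3.36% of retained and 6.99% of all windows, and the cyclic AMP response element core TGACGT in 18.5%, 14.3% and 8.49%. The GC box GGGCGG stood at 56.3%, 66.4% and 46.2%. Among the motifs given here, the intervals of gained and retained windows were separate for TTCNNNGAA and its strong form and overlapped for the others.

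**Figure D1:**
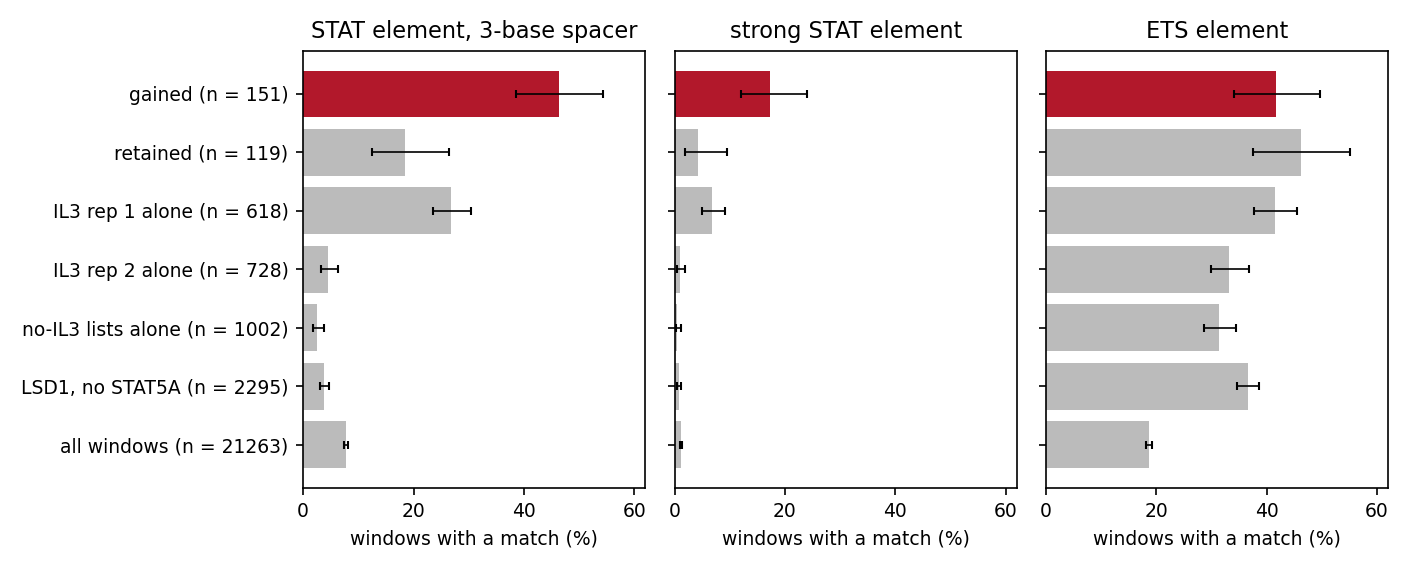
Share of promoter windows (percent, horizontal axis) that hold a STAT element with a 3-base spacer, its strong form or an ETS element, for windows grouped by the STAT5A or LSD1 region that overlaps them; whiskers are 95% Wilson intervals. Gained windows lead for both STAT forms, at 46.4% and 17.2%, whereas the ETS element is at 41.7% of gained and 46.2% of retained windows.

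The gained windows held 69 distinct STAT elements, of which 63 lay inside the STAT5A region. The median distance from element to region centre was 27 bp, and 34 elements lay within 25 bp and 48 within 50 bp. Relative to the gene, 57 of 69 were upstream of the start, at a median of -83 bp. The windows searched run from 250 bases before to 50 bases after the start. Most positions searched are therefore upstream, and the count by itself shows no upstream preference. The strong form made up 31.9% of these elements and 14.8% of the 1725 elements in all windows. The commonest strings were TTCCCGGAA with 13 elements, TTCCCAGAA with 11 and TTCCAGGAA with 9. An element and the ETS letters can be the same bases, since 13 of the 69 elements contain CCGGAA or its complement.

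Regions with an element in the window had the higher median scores, a split that was not tested. The median score in the authors' pooled list with IL3 was 94 for the 21 regions with a strong element, 79 for 39 with another form and 42.7 for 67 with none in the window. For the 176 regions that overlap no window it was 76.9. Replicate 1 alone gave medians of 78.3, 115.6 and 48.5 for the first 3 classes and replicate 2 gave 60, 50 and 40, so the order of strong and other forms differs between replicates while regions with none were lowest in both.

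**Figure D2:**
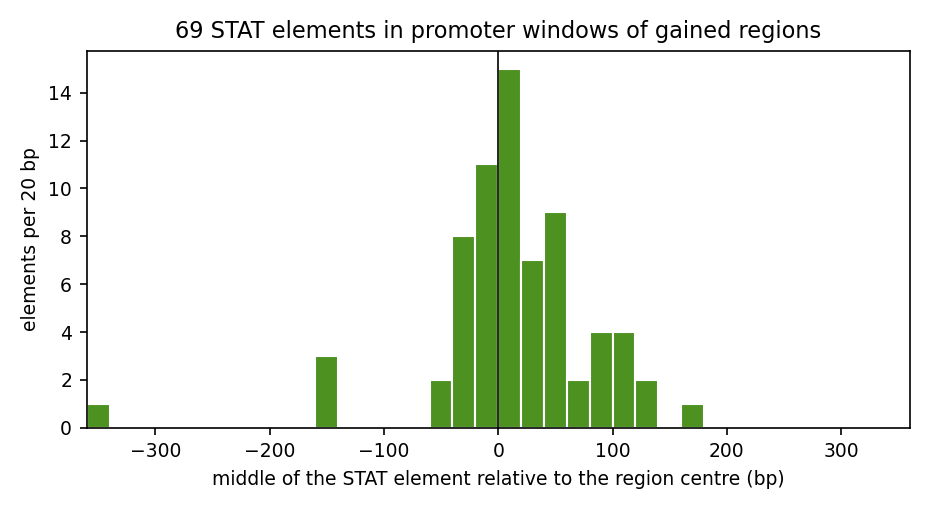
Distance in bp from the centre of the gained region to the middle of each of the 69 STAT elements in its promoter window, counted per 20 bp. Most elements sit near the centre, 48 of 69 within 50 bp.

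Gene strand was known from the promoter table for 246 of the 303 regions. Of these, 223 were nearest a gene start and 23 nearest a 3′ end, a start share of 90.7% (86.4 to 93.7). The share was 95.5% among 110 retained and 94.6% among 4752 other gene-end regions. Gained regions spread more widely about the start than retained ones. Their median distance was 231 bp against 60 bp for retained and 190 bp for other regions, and 29.6% lay within 100 bp against 60.0% and 30.3%. Centres fell on both sides of the start, 104 upstream and 119 at or downstream, with a median of 21 bp downstream.

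**Figure D3:**
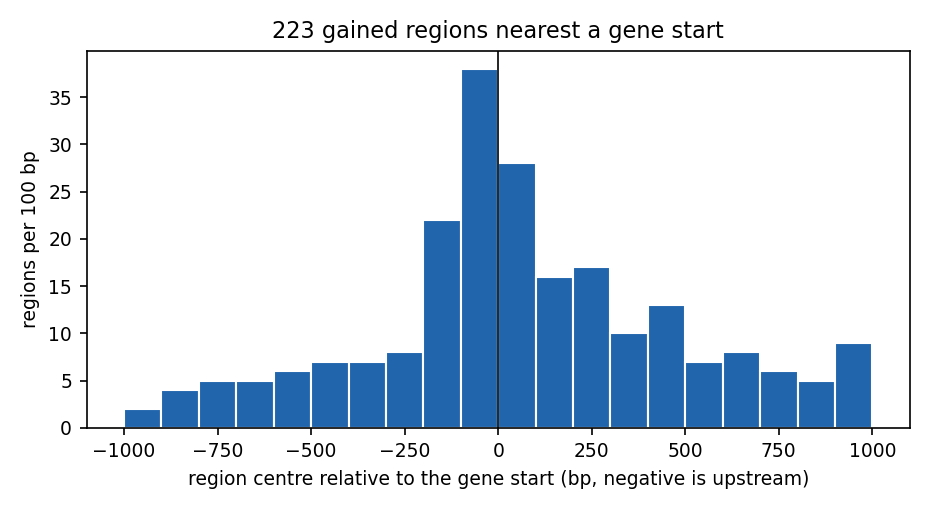
Position of the centre of the 223 gained regions nearest a gene start, in bp from the start (negative is upstream), counted per 100 bp. The centres peak at the start, with 104 upstream and 119 at or downstream.

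Exactly 1 gene had an end within 1 kb of 258 regions, and 45 regions had 2 or 3 such genes, among them 26 between the starts of divergent genes. Examples are Prpf31 with Tfpt, Mitd1 with Mrpl30, Myd88 with Acaa1a and Rnf31 with Psme2. For these regions the data do not say which gene a value belongs to. Another gained STAT5A region lay within 10 kb of 25 regions, and 5 genes (Fbxl15, Fbxo30, Lpp, Osm and Rnf31) had 2 gained regions at their ends. At the 1 kb limit, the regions just inside were at Abcb8 (994 bp, scores 22.4 and 35 in replicates 1 and 2), Abhd14b (993 bp, 29.8 and 30) and Tmem154 (992 bp, 376.6 and 95). Gained regions just outside were at Maff (1010 bp, 100.7 and 70), Zfp1 (1038 bp, 499.7 and 35) and Hace1 (1041 bp, 52.2 and 30).

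Every region carries a score from the authors' deposited lists. No source used here defines that score, and its scale differs between lists, so scores are set against others of the same list only. Scores of the 303 regions ran from 18.6 to 868.9 in replicate 1 with IL3 (median 85.8) and from 25 to 265.1 in replicate 2 (median 45). Across the 303 regions the replicates had a Spearman rank correlation of 0.535, a description over regions that share 2 libraries. Centres called in the replicates differed by a median of 55 bp. Of the 303, 109 stood in the top 25% of both lists and 43 in the top 10% of both. All but the region at Nbn were also in the authors' pooled list.

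**Figure D4:**
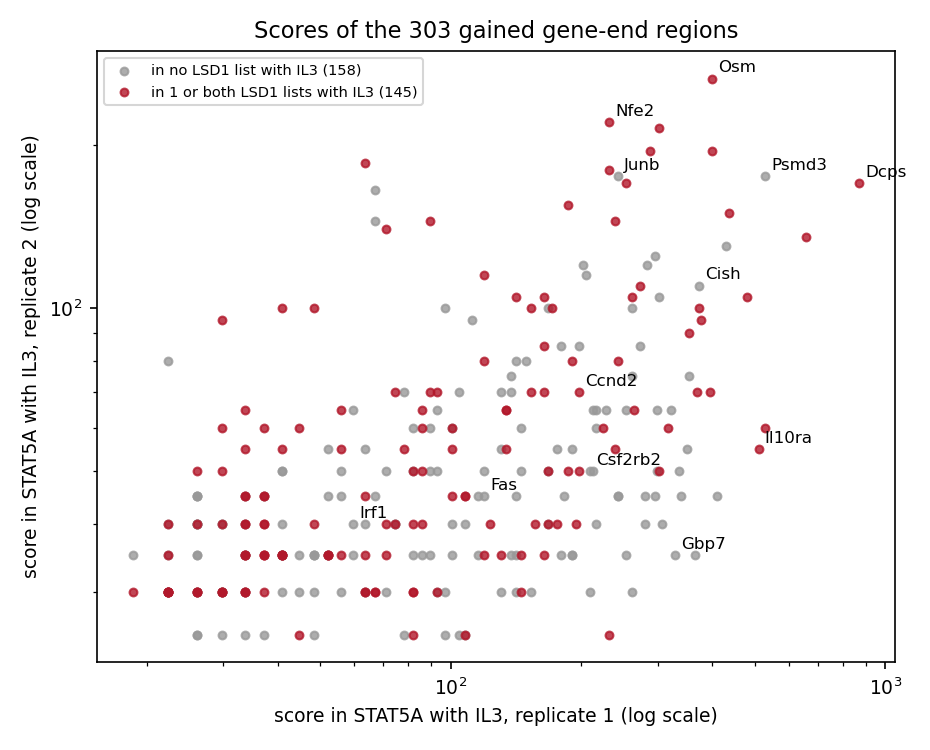
Score of each of the 303 regions in STAT5A replicate 1 (horizontal) and replicate 2 (vertical) with IL3, both on log axes, with red points for the 145 regions in 1 or both LSD1 lists with IL3. Dcps is highest in replicate 1 at 868.9 and Osm highest in replicate 2 at 265.1.

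The regions with the highest pooled scores lay at genes of varied function. Dcps, which encodes the scavenger decapping enzyme that degrades messenger RNA caps, came first, with scores of 868.9 and 170.1 in replicates 1 and 2 and 578.9 in the pooled list. Its region lay 448 bp from the 3′ end of the gene. Rhoq, which encodes a small GTPase, followed with 656.3, 135 and 435.8, and its region lay 512 bp upstream of the start. Psmd3, a subunit of the proteasome's regulatory particle, had 529.5, 175.1 and 363.2. These 3 stood high in both replicates.

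Osm encodes oncostatin M, a cytokine of the interleukin 6 family and a known STAT5 target. It had 2 gained regions, one with scores of 399, 265.1 and 354.6 and one with 354.3, 75 and 237.1. Il10ra, the ligand-binding chain of the interleukin 10 receptor, had 510.9, 55 and 322.6, and Rmi2, a subunit of the BLM helicase complex, 529.5, 60 and 320.5. The region shared by Prpf31, a splicing factor, and Tfpt had 436.3, 150 and 320.5. Il10ra and Rmi2 were further up the ranking in replicate 1 than in replicate 2.

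The rest of the first 12 were BC049352 (pooled score 316.2), Tlcd4 (305.5), Mzt2 (299.1), Pdss2 (267) and the region of Adcy4 and Ltb4r1 (258.5). Pdss2 encodes a subunit of the enzyme that makes the side chain of coenzyme Q, Adcy4 an adenylyl cyclase and Ltb4r1 a leukotriene B4 receptor. Strand was known for 7 of the 12, and 4 of these (Dcps, BC049352, Tlcd4 and Adcy4) lay nearest a 3′ end, against 23 of 246 over the whole set. The lowest pooled score, 19.2, was shared by 5 regions, at 2010315B03Rik, Asb6, Fam122a, Foxa3 and Ostf1 with Nmrk1. Nbn, with 29.8 and 40 in the replicates, had no pooled score.

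Among the receptor and its feedback genes, both beta chains of the IL3 receptor family had a gained region. Csf2rb, the chain shared by the receptors for IL3, IL5 and GM-CSF, had scores of 216.3 and 60 in replicates 1 and 2, and Csf2rb2 had 208.8 and 50. Csf2rb and Csf2rb2 are near-identical neighbours, so reads that fit both could be placed at either. Of the 35 receptor and JAK-STAT genes listed, 19 had any STAT5A region at an end (54.3%, against 25.5% of all protein-coding genes). A gained region was found for 3 (8.57%, against 1.57%). The remaining one was Shc1, an adaptor of the activated receptor, whose region it shares with Cks1b at 41 and 35.

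Cish, the SOCS family inhibitor named for its induction by cytokines, had scores of 372.9 and 110, with the centre 851 bp upstream of the start. Ccnd2, which encodes cyclin D2 of the G1 phase, had 197.6 and 70. With Osm they made 3 of 26 feedback and target genes (11.5%, against 1.57% of all protein-coding genes). Of the 26, 15 had any STAT5A region at an end (57.7%, against 25.5%). The Cish region was in no LSD1 or HDAC3 list, whereas Ccnd2 was in LSD1 replicate 1 with IL3. Of the 2 Osm regions, the higher-scoring was in LSD1 replicate 2 and HDAC3 replicate 1 with IL3. The other Osm region was in no replicate list of LSD1 or HDAC3.

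Of 38 MAP kinase feedback and immediate early genes 4 had a gained region (10.5%, against 1.57% of all protein-coding genes). Of the 38, 13 had any STAT5A region at an end (34.2%, against 25.5%). Dusp16, a phosphatase of JNK and p38, had 350.5 and 55, and Dusp5, a phosphatase of ERK, 26.1 and 40. The Dusp5 scores lay below the list median of 37.3 in replicate 1 and above that of 35 in replicate 2. Junb, a subunit of AP-1, had 242.4 and 175.1, with the centre 345 bp from the 3′ end. Ier3, an early response gene tied to survival, had 238.7 and 145, also at its 3′ end, 145 bp away. Junb and Ier3 stood high in both replicates.

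Of 43 haematopoietic transcription factor genes 4 had a gained region (9.30%, against 1.57% of all protein-coding genes). Of the 43, 17 had any STAT5A region at an end (39.5%, against 25.5%). Nfe2, the p45 subunit of the erythroid and megakaryocyte factor NF-E2, had 231.2 and 220.1, the second highest score of the set in replicate 2. Irf2 had 134.3 and 65, Irf1 59.7 and 40, and Tcf3, which encodes the B lineage factor E2A, 26.1 and 30. Among 28 survival genes, Fas, a death receptor, had 119.3 and 45 and Bax, a pore-forming member of the BCL2 family, 41 and 35. Bcl2l1, Mcl1 and Bcl2 are on this list as well and had no gained region. A gained region was thus found for 2 of the 28 (7.14%, against 1.57%) and any STAT5A region at an end for 12 (42.9%, against 25.5%). Of 19 genes of the LSD1 and HDAC3 complexes 10 had some STAT5A region at an end (52.6%, against 25.5% of all protein-coding genes) and 0 a gained one, too few genes to set against 1.57%.

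Genes of the interferon system were noticed when the members were read, and a list of them was then drawn up with their values seen, so its count supports nothing beyond itself. Of its 58 genes found by symbol, 11 had a gained region (18.97%, against 1.57% of all protein-coding genes) and 25 any STAT5A region at an end (43.1%, against 25.5%). Ifnar2, a chain of the type I interferon receptor, had scores of 287.1 and 195.1. Irf9, the DNA-binding subunit of the ISGF3 complex, had 283.4 and 120 in a region it shares with Rnf31. Gbp7 had 328.2 and 35 and Ifi35 212.6 and 50. Most of the 58 genes had no gained region, so those named here do not speak for the interferon system as a whole.

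Parp14, an ADP-ribosyltransferase that acts with STAT6, had 100.7 and 40, and the other interferon genes were Irf1, Irf2, Eif2ak2, Psme2, Samhd1 and Zc3hav1. A second list drawn up the same way, for Toll-like receptor and NF-kB signalling, had 7 of 49 genes (14.3%, against 1.57% of all protein-coding genes). Any STAT5A region at an end was found for 26 of the 49 (53.1%, against 25.5%). The adaptors Myd88 and Tirap had 108.1 and 25 and 97 and 25, both at the lowest score of the set in replicate 2. Nrros, which encodes a leucine-rich repeat protein that binds Toll-like receptors and latent TGF beta, had 119.3 and 80, and Chuk had 37.3 and 40. Bcl10, Rnf31 and Tlr12 were the others.

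Lists of general cell function also lay above the 1.57% of all protein-coding genes, though some of these counts are only 2 or 3 genes. Any STAT5A region at an end was also commoner in the proteasome, helicase, ribosomal, translation and metabolic lists. There it was found for 48.2 to 59.5%, against 25.5% of all protein-coding genes. Proteasome genes had 4 of 51 (Psmd3, Psmd4, Psmd11 and Psme2, 7.84%) and DEAD and DEAH box helicases 3 of 53 (5.66%). Mitochondrial ribosomal proteins had 3 of 78 (3.85%) and cytosolic ribosomal proteins 2 of 83 (2.41%). Genes with the symbols of translation initiation and elongation factors had 4 of 71 (5.63%). Of these 4, Eef2 and Eif5a are such factors, whereas Eef1aknmt and Eif2ak2 encode enzymes that act on one. Eif2ak2 is also on the interferon list. The proteasome share is close to the 8.57% of the receptor list and above the 7.14% of the survival list. In the metabolic list, with 2 of 37 (5.41%), Akt1, the growth factor kinase, had 37.3 and 35, and Pfkp, a phosphofructokinase of glycolysis, 141.7 and 35. Large gene families without a stated tie to IL3 were near the share of all genes or below it, with 6 of 397 Zfp zinc finger genes (1.51%) and 2 of 375 solute carrier genes (0.533%).

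LSD1 and HDAC3 calls were not used to choose the regions and can be compared between conditions. LSD1 overlapped 7 (2.31%) and 95 (31.4%) of the 303 regions in the replicates without IL3 and 68 (22.4%) and 124 (40.9%) after IL3 was given, so the conditions overlap. The same 4 shares at all STAT5A regions at gene ends were 3.11, 33.9, 19.5 and 37.4%. The mean share was 16.8% ± 20.5 without and 31.7% ± 13.1 with IL3 (SD, n = 2 each), a difference of 14.9 percentage points that did not pass an exact two-sided permutation test (p = 0.667, 0.800 adjusted over 6 tests). With 2 against 2 this test cannot go below 0.333. Without replicate 1 of LSD1 without IL3, the short list, the difference was 0.330 points, and without replicate 2 it was 29.4 points. It was 24.1 and 5.61 points without LSD1 replicates 1 and 2 of the stimulated cells, and 3.34 points when replicate 2 of STAT5A with IL3 was left out of the choice of regions.

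Set against all gene-end STAT5A regions of the same library, the 303 were lower by 0.803 and 2.53 points without IL3, and higher by 2.96 and 3.48 points with IL3. Here the conditions do not overlap, a difference of 4.89 points at the smallest p the design allows (exact permutation p = 0.333). That scaling was added after the data were seen. Its reference takes in the 303 themselves and 1722 regions called in replicate 2 of STAT5A without IL3 alone. The 303 were chosen by calls with IL3 and not without, so the sets differ by condition from the start. Whether this moves the difference was not tested.

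LSD1 shares at the gained gene-end regions were below those at the 1508 gained regions elsewhere in each of the 4 libraries. In cells without IL3 the latter stood at 4.24 and 38.5%, and after IL3 at 36.0 and 48.9%. The mean difference was -7.64 points (exact two-sided sign-flip test over 4 libraries p = 0.125, its smallest value, 0.375 adjusted). Without replicate 1 of STAT5A with IL3 the mean difference turned to 1.58 points, with replicate 2 of STAT5A with IL3 left out it was -0.246, and with the authors' pooled lists it was 11.0. At the 130 retained gene-end regions LSD1 shares were 14.6, 64.6, 42.3 and 71.5%, above the gained ones in all 4 libraries, with a mean difference of -24.0 points (p = 0.125, 0.375 adjusted, same exact test). Without STAT5A replicate 2 of the cells without IL3 that difference was -14.8 points.

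LSD1 was in 1 or both lists with IL3 at 145 of the regions (47.9%, against 44.3% of all gene-end STAT5A regions). It was in both lists with IL3 and neither without at 15 of the 303 regions (4.95%, against 3.78% of gene-end STAT5A regions), and in both without and neither with at 1, Tpt1 (against 0.287%). It was in all 4 lists at 5 (against 1.13%) and in none at 137 (45.2%, against 45.2%). The 15 included Dcps, Tmem154, C5ar1, Klf9, the region of Ltb4r2 and Cideb, Nsd3, Ppard, Icosl, Nrros and Pros1. C5ar1 and Ltb4r2 encode receptors for complement C5a and leukotriene B4, Klf9 and Ppard transcription factors, Nsd3 a histone methyltransferase, Icosl a T cell costimulator and Pros1 the anticoagulant protein S. The Dcps region had LSD1 scores of 32.2 and 26.6 in the lists with IL3, against list medians of 19.8 and 26.6.

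The 5 regions with LSD1 in all 4 lists were at Rmi2, Arid5a, Sertad1, Pigv and Dhrs13. Rmi2 had LSD1 scores of 89.1 and 106.6 with IL3 and Arid5a, an AT-rich binding protein that stabilises messenger RNAs of inflammation, 79.2 and 109.3. Both lie well above the list medians. Where LSD1 was called, its centre lay a median of 61 and 59 bp from the STAT5A centre in the 2 lists with IL3.

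**Figure D5:**
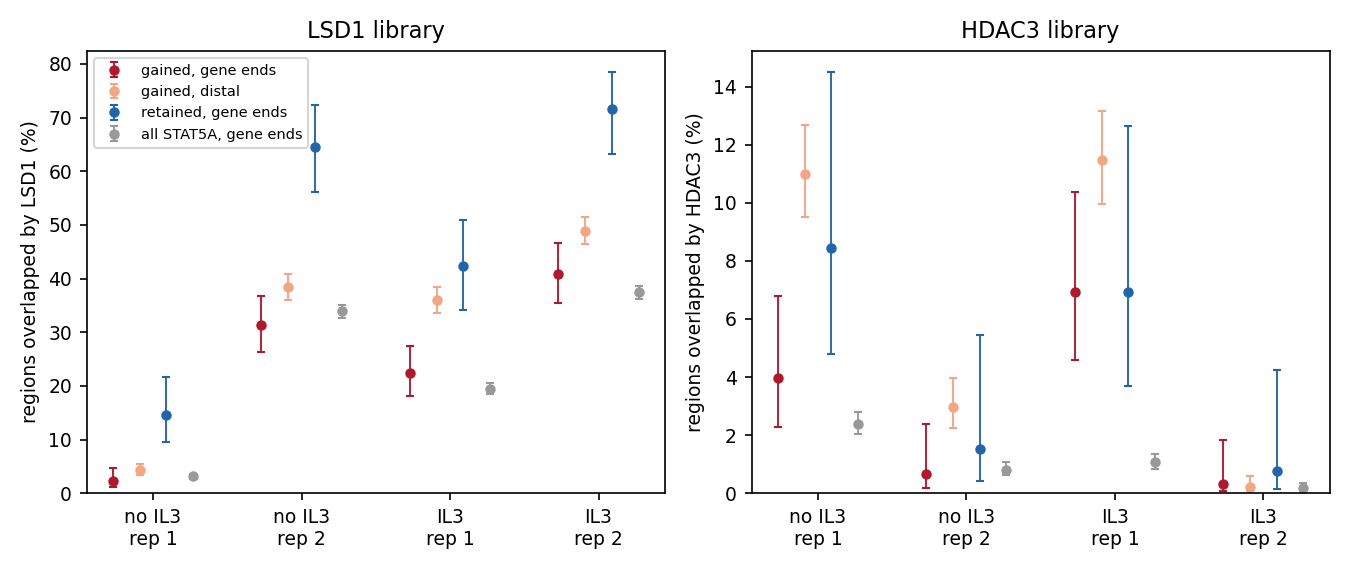
Share of STAT5A regions (percent) overlapped by LSD1 (left) or HDAC3 (right) in each of the 4 libraries of that protein, for gained gene-end, gained distal, retained gene-end and all gene-end STAT5A regions; whiskers are 95% Wilson intervals. The 303 gained gene-end regions lie below the retained ones in every LSD1 library, and no HDAC3 share of theirs exceeds 6.93%.

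HDAC3 overlapped few of the regions. Counts were 12 (3.96%) and 2 (0.660%) without IL3 and 21 (6.93%) and 1 (0.330%) with it, against 2.40, 0.814, 1.07 and 0.192% of all gene-end STAT5A regions. The means were 2.31% ± 2.33 and 3.63% ± 4.67 (SD, n = 2 each), a difference of 1.32 points (exact permutation p = 1, two-sided). The sign of that difference turned without either STAT5A replicate with IL3 (-0.620 without replicate 1 and -0.128 without replicate 2), without HDAC3 replicate 2 of the cells without IL3 (-0.330), without replicate 1 of those with IL3 (-1.98) and with the pooled lists (-2.40). Gained regions elsewhere had 11.0 and 2.98% without and 11.5 and 0.199% with IL3, a mean difference of -3.45 points (exact sign-flip p = 0.25, 0.375 adjusted), with the gained gene-end regions lower in 3 of 4 libraries. Retained gene-end regions had 8.46, 1.54, 6.92 and 0.769%, a mean difference of -1.45 points (exact sign-flip p = 0.25, 0.375 adjusted).

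HDAC3 was in 1 or both lists with IL3 at 22 regions (7.26%, against 1.25% of gene-end STAT5A regions), 21 of them in replicate 1 and that of Nfe2 in replicate 2. Of the 22, 20 were also in an LSD1 list with IL3 and 16 in no HDAC3 list without IL3. The 22 lay at signalling and transcription genes and at genes of other kinds: Osm, Rmi2, Pdss2, Gm7244, Nfe2, C5ar1, Ier3 with Flot1, Arid5a, 1110002E22Rik, Klf9, Ltb4r2 with Cideb, Nucb1, Arhgdib, Tnfsf14, Rd3, Podxl, Bhlhe40, Irf2, Zfp385a, Lgals3, Rcsd1 and Bax. The highest HDAC3 score of the set in replicate 1 with IL3 was at Ier3, with 41.1 against a list median of 21.9, and Osm had 27.4. In replicate 1 with IL3, HDAC3 was at 18 of 154 regions in the upper part by pooled STAT5A score (11.7%) and at 3 of 149 in the lower part (2.01%). Without IL3, replicate 1 had the same direction, with 8 (5.19%) and 4 (2.68%). Replicate 2 had 1 and 0 with IL3 and 2 and 0 without. The same split for LSD1 gave 24.7 and 20.1% in replicate 1 and 39 and 43.0% in replicate 2 with IL3.

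By place, LSD1 in replicate 1 with IL3 was at 10 of the 23 regions nearest a 3′ end (43.5%) and at 45 of the 223 nearest a start (20.2%), and in replicate 2 at 11 (47.8%) and 86 (38.6%). HDAC3 in replicate 1 with IL3 was at 5 of 23 (21.7%) and 9 of 223 (4.04%). The contrast was also present without IL3, where HDAC3 in replicate 1 was at 3 (13.0%) and 6 (2.69%). LSD1 without IL3 was at 1 (4.35%) and 4 (1.79%) in replicate 1 and at 10 (43.5%) and 65 (29.1%) in replicate 2. HDAC3 in replicate 2 was at 0 of both groups in either condition. This split rests on 23 regions at 3′ ends and was not made for other gene-end STAT5A regions. Whether it is particular to the gained ones was not tested. Neither corepressor was in any replicate list at 135 of the 303 regions (44.6%), close to the 44.8% of all gene-end STAT5A regions.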

How the data were processed

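Called regions of STAT5A, LSD1 and HDAC3 ChIP-seq in Ba/F3 cells were analysed as 12 replicate lists and 6 lists of the authors' pooled libraries. Per the submitters' processing notes, Trimmomatic 0.30, Bowtie2 2.1.0, Picard 1.92 and HOMER 4.8 were used, with mm10. The caller's settings, control and threshold are in none of the sources used here. The authors deposited a score with each region. The score is undefined, so it was used only within a list, and depth is unknown. An input library in maintained IL3 was not used here.

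Python 3.11.15 with numpy 2.4.6, pandas 2.3.3, scipy 1.17.1 and matplotlib 3.10.9 was used. Regions were merged at 1 bp of overlap over the 4 STAT5A lists, and gene bounds were those of RefSeq GRCm38.p6. LSD1 or HDAC3 was present where 1 bp overlapped. Shares per library were compared by exact permutation of 2 against 2 libraries (smallest p 0.333) or by an exact sign-flip over 4 libraries (smallest p 0.125), both two-sided, with Benjamini-Hochberg adjustment over 6 tests and a threshold of 0.05. No test here could pass it. Wilson 95% intervals cover counting error only, and regions are not replicates. Motifs were counted on both strands of the 300-base windows, and a gene can have several windows. Merging, gene-end assignment and motif search were tested on simulated data, where 200 of 200 planted gained gene-end regions and 120 of 120 planted elements were recovered. The simulated lists held planted regions only, and the sequences only A and C outside the planted elements. Full recovery therefore checks the code and gives no error rate for the deposited lists.

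The members, gene lists and tests were chosen with earlier results of these data known. The rule for named genes took the 12 regions with the highest pooled score, the 3 lowest, 3 on each side of the 1 kb limit, the genes of 8 symbol lists, regions with HDAC3 in a list with IL3, up to 10 with LSD1 gained and up to 5 with LSD1 in all lists, and the 6 leading regions with a strong element. The interferon and Toll-like receptor genes, Tpt1, Chuk, regions tied at the lowest score, the genes of divergent pairs and those with 2 regions were named after their values were seen. Alternatives were single libraries left out, a stricter overlap, the higher-scoring regions of every list, other distances to a gene bound, the pooled lists and a replicate block.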

Additional observations from a re-analysis of the deposited data

Results flagged for a closer look

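Of the 303 regions, 23 (7.59%) overlapped a region of the authors' pooled STAT5A list without IL3, a list that was not used to choose them. These were called in neither replicate without IL3 but in the pooled library of both. Examples with their scores in that pooled list are Nfe2 (37.7), Sertad1 (23.0), Ifi35 (18.9), Psmd3 (16.8), Ier3 (16.8), Commd7 (14.7) and Bax (14.7). For these regions the call without IL3 depends on whether the replicates are pooled. Without the 23, an alternative added after the data were seen, 280 regions remained, the STAT element share was 44.4%, the LSD1 difference between conditions was 14.8 points (exact permutation p = 0.667) and that of HDAC3 1.43 points (p = 1, same exact test).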

How the results depend on the processing

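The number of gained gene-end regions was 303, and 2997 with the pooled lists, where a call in both replicates is not asked for. Leaving out single libraries gave 308 to 1949. The STAT element share, 46.4%, was 58.2% among the higher-scoring regions of every list, 57.5% for windows that hold the region's centre, 16.7% with the pooled lists and 11.9 to 45.8% with single STAT5A libraries left out. The start share, 90.7%, was 94.9% within 500 bp of a bound and 85.9% within 2 kb, and 87.2 to 96.3% with libraries left out. The LSD1 difference between conditions, 14.9 points, ranged from 0.330 to 29.4 with libraries left out. The LSD1 difference from gained regions elsewhere, -7.64, ranged from -9.54 to 1.58 and turned to 11.0 with the pooled lists, and that from retained regions, -24.0, ranged from -27.9 to -14.8 and was -34.7 with the pooled lists. The HDAC3 difference between conditions, 1.32, ranged from -1.98 to 4.62 and turned to -2.40 with the pooled lists. It was -0.620 and -0.128 without STAT5A replicates 1 and 2 with IL3 and -0.330 without HDAC3 replicate 2 without IL3. HDAC3 differences from gained regions elsewhere, -3.45, ranged from -4.64 to -1.08, and from retained regions, -1.45, from -4.82 to -0.437, with -1.45 and -7.28 in the pooled lists. With the replicate number as a block, the LSD1 difference was 14.9 points (exact sign-flip p = 0.5 over 2 pairs, the smallest it can give) and the HDAC3 difference 1.32 (exact p = 1). With only 2 pairs, whether numbers pair libraries cannot be told. Apart from the pooled lists and fewer libraries, the cause of these shifts was not tested.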
